A study of Homo sapiens with 3 samples.

Results

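Of the 20163 protein-coding genes in the annotation of the human genome hg19, 38 encode an integrin subunit or a laminin chain, and their chromatin marks are described here in H2087, a cell line established from a human adenocarcinoma of the lung. Members were chosen by symbol alone, as every gene named ITGA, ITGB, LAMA, LAMB or LAMC with a number or letter. They comprised 26 integrin genes, of which 18 encode alpha and 8 encode beta subunits, and 12 laminin genes, and lay on 15 chromosomes. Untreated H2087 cells were assayed by chromatin immunoprecipitation and sequencing (ChIP-seq) with an antibody against histone H3 trimethylated at lysine 4 (H3K4me3) or acetylated at lysine 27 (H3K27ac). The labels list 3 samples, 1 library for each mark and 1 input library, and the input was not analysed here. Because each mark had 1 library (n = 1), no value below has a replicate error and no test between marks or genes was made.

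Integrins are receptors made of 1 alpha and 1 beta subunit that span the cell membrane. They bind proteins of the extracellular matrix or of other cells and connect them to the actin or keratin cytoskeleton. Laminins are trimers of 1 alpha, 1 beta and 1 gamma chain and are a main component of the basement membrane, the sheet on which epithelial cells rest. H3K4me3 marks the starts of genes that are transcribed or poised for transcription, whereas H3K27ac marks active starts and enhancers. A peak is an interval in which the authors' peak caller found more reads than its background, and each peak carries a −log10 q, in which q is the false discovery rate of its highest summit. This value ranks peaks within the list of 1 mark and says nothing about the amount of RNA or protein. Read depth is unknown from peak lists, so a start without a peak cannot be told apart from a start with too few reads.

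Sequences are printed first for ITGA5, the integrin gene with the highest H3K4me3 value near the start, and for LAMC1 and LAMA5, the laminin genes with the highest and second highest. ITGA1 and LAMA1, which had no peak near the start, are shown for contrast. Each line holds the 250 bases before the gene start, read 5′ to 3′ along the strand of the gene in the GRCh37 (hg19) assembly. Capitals mark the GC box, GGGCGG or its reverse complement CCGCCC, which is bound by factors of the SP family. The regions are chr12:54813051-54813300 on the minus strand for ITGA5, chr5:52083500-52083749 on the plus strand for ITGA1, chr1:182992305-182992554 on the plus strand for LAMC1, chr20:60942369-60942618 on the minus strand for LAMA5 and chr18:7117797-7118046 on the minus strand for LAMA1.
ITGA5: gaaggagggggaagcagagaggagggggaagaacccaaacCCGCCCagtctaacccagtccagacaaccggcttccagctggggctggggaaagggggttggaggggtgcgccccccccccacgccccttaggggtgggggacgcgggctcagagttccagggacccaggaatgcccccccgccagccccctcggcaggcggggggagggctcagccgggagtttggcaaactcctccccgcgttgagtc
ITGA1: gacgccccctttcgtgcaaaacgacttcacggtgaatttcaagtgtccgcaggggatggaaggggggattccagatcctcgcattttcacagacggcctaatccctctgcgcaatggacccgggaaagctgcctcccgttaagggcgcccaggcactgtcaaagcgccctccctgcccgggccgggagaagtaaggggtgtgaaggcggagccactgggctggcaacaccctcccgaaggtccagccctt
LAMC1: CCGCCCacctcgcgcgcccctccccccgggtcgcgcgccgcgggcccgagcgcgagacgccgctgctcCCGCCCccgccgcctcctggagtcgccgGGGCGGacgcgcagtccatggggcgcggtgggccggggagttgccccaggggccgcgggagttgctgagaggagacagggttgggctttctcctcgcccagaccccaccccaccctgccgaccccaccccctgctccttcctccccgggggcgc
LAMA5: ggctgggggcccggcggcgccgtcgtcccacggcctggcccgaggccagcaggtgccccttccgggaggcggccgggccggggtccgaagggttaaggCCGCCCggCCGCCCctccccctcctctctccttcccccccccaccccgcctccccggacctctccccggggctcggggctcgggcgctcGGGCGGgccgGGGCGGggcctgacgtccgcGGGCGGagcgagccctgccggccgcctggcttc
LAMA1: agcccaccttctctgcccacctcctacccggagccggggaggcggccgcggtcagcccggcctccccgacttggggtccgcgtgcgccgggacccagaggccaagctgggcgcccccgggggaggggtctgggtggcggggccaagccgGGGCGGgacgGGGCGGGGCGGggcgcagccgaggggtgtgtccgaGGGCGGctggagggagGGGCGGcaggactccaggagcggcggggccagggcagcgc
The GC box occurred once before ITGA5, 3 times before LAMC1 and 5 times before LAMA5. It was not found before ITGA1. LAMA1 held 5 matches, 2 of them sharing a base, and 27 CpG dinucleotides, but had no peak of either mark within 10 kb of the gene.

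The H3K27ac peak with the highest value away from any start is shown for each family as an example of acetylation away from starts. The ITGA3 sequence is the central 300 bases of a peak at chr17:48141464-48141763, which covered coding sequence of exon 2 and had a −log10 q of 6.88. The LAMB3 sequence is a whole peak of 216 bases in intron 3 at chr1:209822288-209822503, with a −log10 q of 4.27. Both are read on the plus strand, so that LAMB3, a gene of the minus strand, appears as its reverse complement. Capitals would mark the AP-1 motif TGANTCA, and neither sequence held a match.
ITGA3 distal peak: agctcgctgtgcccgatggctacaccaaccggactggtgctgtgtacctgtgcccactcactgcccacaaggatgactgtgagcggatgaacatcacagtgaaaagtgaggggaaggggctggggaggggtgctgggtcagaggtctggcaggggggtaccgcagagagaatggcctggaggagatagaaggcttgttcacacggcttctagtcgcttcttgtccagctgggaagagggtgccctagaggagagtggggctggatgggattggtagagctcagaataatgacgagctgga
LAMB3 distal peak: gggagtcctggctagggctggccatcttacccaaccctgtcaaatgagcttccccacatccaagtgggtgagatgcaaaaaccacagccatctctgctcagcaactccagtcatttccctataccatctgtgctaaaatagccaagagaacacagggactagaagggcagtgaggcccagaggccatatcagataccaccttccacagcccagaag

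The cells carried the marks of an epithelial line. Near the start, 6 of 6 epithelial marker genes (KRT8, KRT18, KRT19, EPCAM, CDH1 and ELF3) had H3K4me3 and 5 of 6 had H3K27ac. Of 4 lung markers, NKX2-1 had both marks, and NAPSA, SFTPB and SFTPC had neither. No peak of either mark lay near the outer starts of 5 leukocyte, 4 fibroblast, 3 platelet or 3 endothelial markers. CD14, a leukocyte marker, and COL1A1, a fibroblast marker, had H3K4me3 near another transcript start. Another endothelial marker, PECAM1, was not found in the annotation used.

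H3K4me3 was found within 1 kb of the start of 15 of the 38 members (39.5%, exact 95% interval 24 to 56.6), against 38.2% of all protein-coding genes. H3K27ac was found there in 8 of 38 (21.1%, 9.55 to 37.3), against 23.6% of all genes. Those 8 members also had H3K4me3, against 18.6% of all genes with both marks near the start. All 3 shares of the members were close to the background. Intervals are exact Clopper-Pearson intervals and cover counting error only. No member had H3K27ac alone near its start, which was the state of 4.99% of all genes.

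Over the gene with 10 kb on each side, 25 of 38 members (65.8%, 48.6 to 80.4) had an H3K4me3 peak, against 56.8% of all genes. H3K27ac was found over 28 of 38 (73.7%, 56.9 to 86.6), against 48.9% of all genes. The windows of the members were longer than those of other genes, with a median of 101 kb against 47.2 kb, and a longer window has more room for a peak. Per 100 kb of window, the members held 1.53 H3K4me3 peaks and 2.34 H3K27ac peaks, compared with 1.5 and 1.61 for all genes. ITGA3 alone weighed on the second value, which was 2.01 without it.

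**Figure D1:**
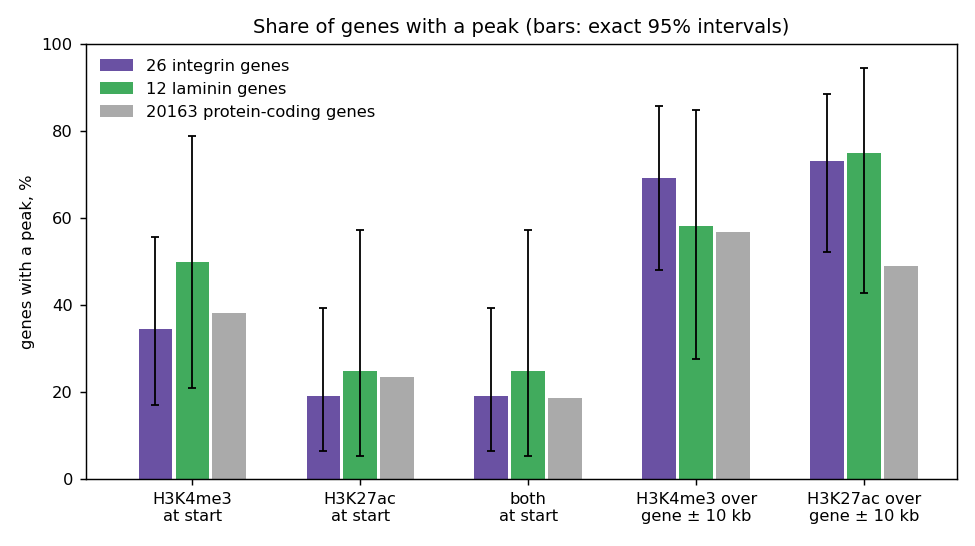
Percentage of genes (vertical axis) with a peak of H3K4me3, of H3K27ac or of both within 1 kb of the start, or over the gene with 10 kb flanks, for 26 integrin genes, 12 laminin genes and all 20163 protein-coding genes. Error bars are exact 95% intervals for counting error. Near the start, the intervals of both families include the grey background bar, and the H3K27ac share over the gene was 73.1% for integrins and 75% for laminins beside 48.9% of all genes.

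The members fell into 3 states. The starts of ITGA2, ITGA3, ITGA7, ITGB4, ITGB8, LAMB1, LAMB3 and LAMC1 had both marks, and in all 8 a peak of one mark overlapped a peak of the other. H3K4me3 without H3K27ac was the state of 7 starts, among them ITGA5, ITGAV, ITGB2, ITGB3, LAMA3 and LAMA5. The remaining 23 members had neither mark near the start. Among all starts with H3K4me3, 48.6% also had H3K27ac, and among those of the members 53.3%.

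**Figure D2:**
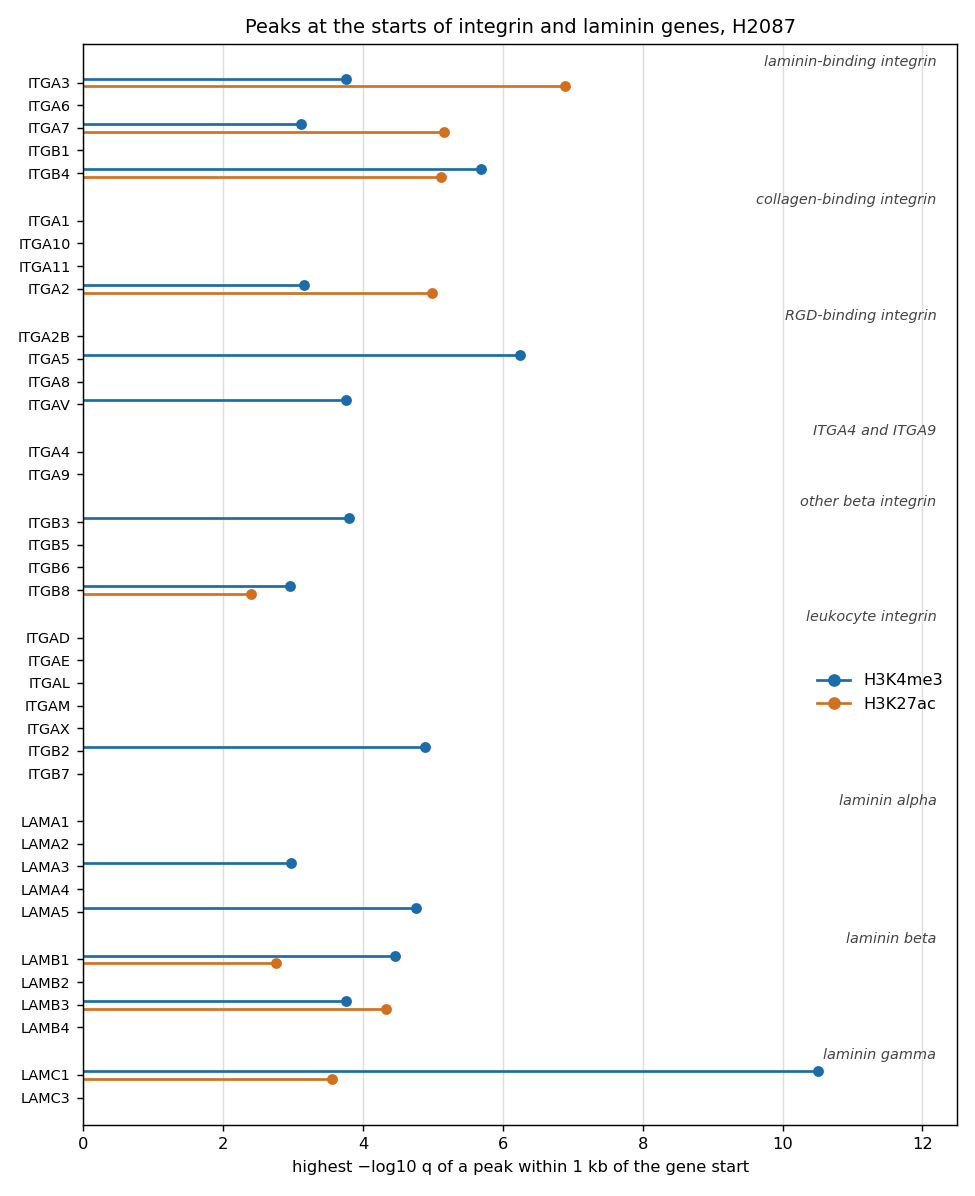
Highest −log10 q (horizontal axis) of an H3K4me3 or H3K27ac peak within 1 kb of the gene start for integrin and laminin genes, grouped by role. A row without points had no peak there, and values of the marks come from separate lists. LAMC1 had the highest H3K4me3 value, 10.5, and ITGA3 the highest H3K27ac value, 6.88.

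Of the 5 integrin subunits that bind laminin, ITGA3, ITGA7 and ITGB4 had H3K4me3 and H3K27ac near the start (3 of 5, 60%, 14.7 to 94.7), and this interval includes the 18.6% of all genes. The peaks near this start of ITGA7 are shared with a neighbour on the opposite strand. ITGA3, the alpha subunit of a laminin receptor of epithelia, lies on chromosome 17 at 48133332 to 48167845. Its start had 1 H3K4me3 peak with a −log10 q of 3.76 over exon 1 and 3 H3K27ac peaks, the highest at 6.88. A stronger H3K4me3 peak of 7.29 lay in intron 1, with its edge 1008 bp from the start and so just outside the 1 kb limit. PICART1, a long noncoding RNA on the opposite strand, starts at −222 bp relative to ITGA3, and the peaks cannot be divided between the pair.

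ITGB4 encodes the beta subunit that anchors hemidesmosomes to laminin. An H3K4me3 peak of 5.69 covered the 5′ untranslated part of exon 1, and an H3K27ac peak of 5.12 ended 136 bp upstream of the start. Its partner ITGA6 had neither mark near the start, and its window held 3 H3K27ac peaks in intron 1, the nearest 18.1 kb from the start, and no H3K4me3. The subunits of this receptor differed in state.

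ITGA7, best known from muscle, had an H3K27ac peak of 5.15 and an H3K4me3 peak of 3.11 within 1 kb. BLOC1S1 and the overlapping ENSG00000258311 start 366 and 368 bp inside ITGA7 on the opposite strand and run through the same region, so these peaks cannot be assigned to ITGA7 alone. The canonical transcript of ITGA7 starts 8.5 kb further downstream, and an H3K4me3 peak of 6.02 with 2 summits covered that start.

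ITGB1 encodes the beta subunit shared by most matrix receptors, and its outer start had no peak of either mark. The outer start of the annotated gene lies 47.6 kb upstream of the start of the canonical transcript. Near the canonical start, ITGB1 had an H3K4me3 peak of 2.97 and 2 H3K27ac peaks of 2.59 and 2.16. All 3 also lay within 1 kb of the start of ITGB1-DT, a divergent neighbour, and cannot be divided between the pair. ITGB5, a beta subunit that pairs with ITGAV, followed the same pattern. Its canonical start, 14.1 kb inside the gene, had H3K4me3 at 3.76 and H3K27ac at 2.95. In the opposite direction, ITGB2 had H3K4me3 at its outer start and none at its canonical start 11.1 kb away. With canonical starts, a choice made after the data were seen, 16 of 38 members had H3K4me3 against 41.3% of all genes, and 10 had H3K27ac against 25.2%.

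Among 24 members with an annotated transcript start over 1 kb from the outer one, 7 had H3K4me3 near such a start (29.2%, 12.6 to 51.1), against 25.4% of such genes in the genome. They included ITGA2B, ITGB1 and ITGB5, which had none at the outer start. Counting every protein-coding transcript start, 18 of 38 members had H3K4me3 (47.4%, 31 to 64.2) against 44.6% of all genes, and 12 had H3K27ac (31.6%, 17.5 to 48.7) against 29.1%. These shares were close to the background.

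Of the 4 collagen-binding alpha subunits, only ITGA2 had marks near its start. ITGA2, a collagen receptor of epithelia and platelets, had 9 H3K4me3 peaks over its window, the most of any member. Its start carried H3K4me3 at 3.16 and H3K27ac at 4.99, and the antisense ITGA2-AS1 starts 938 bp inside it. Higher H3K4me3 values lay inside intron 1, with 4.54 at 1.44 kb, 4.60 at 2.74 kb and 5.47 at 28.1 kb from the start. ITGA1 shares its start with PELO and had no peak there, although 3 H3K4me3 peaks lay in intron 1 between 11.8 and 13.6 kb downstream, the highest at 4.60. Of these, 2 peaks, the highest among them, lay within 1 kb of the start of PELO-AS1. ITGA10 had 3 H3K4me3 peaks in its window, all near starts of other genes. ITGA11 had 4 H3K27ac peaks, the nearest 76.5 kb from its start, and no H3K4me3.

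The subunits that bind the RGD motif of fibronectin and vitronectin divided evenly. ITGA5, the fibronectin receptor alpha subunit on chromosome 12 at 54789045 to 54813050, had the broadest single H3K4me3 peak near a member start, 1482 bp with 4 summits and a value of 6.24. This peak covered the start base itself. No H3K27ac lay near the ITGA5 start, and the nearest, in intron 1, was 4.51 kb away. ITGAV, the common partner of several beta subunits, had an H3K4me3 peak of 3.76 and no H3K27ac in its whole window. ITGA8 had no peak of either mark. ITGA2B, the platelet subunit, had none near its outer start and a weak H3K4me3 peak of 1.55 at another transcript start.

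Of the beta subunits that pair with ITGAV, ITGB3 had H3K4me3 at 3.80 and ITGB8 had 3 H3K4me3 peaks of up to 2.95 with H3K27ac at 2.39. The highest H3K4me3 peak and the H3K27ac peak of ITGB8 also lay within 1 kb of the start of ITGB8-AS1. ENSG00000259753, an annotated gene of the same strand, starts 70 bp from ITGB3. ITGB6, an epithelial subunit, had no H3K4me3 over its window and 3 H3K27ac peaks, of which those centred at −6.47 and −8.73 kb had values of 3.55 and 3.71. ITGA4 and ITGA9 encode a separate pair of alpha subunits and had no peak near the start, and ITGA9 had 1 H3K4me3 peak deep inside the gene.

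The leukocyte integrins are subunits of receptors on white blood cells. ITGB2, the common beta subunit of leukocyte integrins, was the only one of 7 with H3K4me3 near the outer start (14.3%, 0.361 to 57.9). Its value was 4.89, and none of the 7 had H3K27ac there (0 of 7, interval up to 41%). Both intervals include the shares of all genes, 38.2% and 23.6%. Its partners ITGAD, ITGAL, ITGAM and ITGAX lie on chromosome 16 and had no peak near the start, on a chromosome where 45.4% of genes had H3K4me3. ITGAE and ITGB7 had no peak near the start either. The share for the chromosome covers starts of any base composition, which is described below. ITGAL and ITGB7 had H3K4me3 in the window, but the ITGAL peak lay at the start of ZNF768 and 1 of 2 ITGB7 peaks lay near the start of another gene. The 8 H3K27ac peaks over ITGB2 lay 1.49 kb or more downstream of its outer start, and their highest value was 4.39. Of these, 3 lay within 1 kb of another transcript start of ITGB2. With any protein-coding transcript start, 1 of the 7 leukocyte integrins had H3K27ac (14.3%, 0.361 to 57.9), against 29.1% of all genes.

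Integrin function requires both subunits, so the marks were compared over 24 textbook pairs. With the outer gene start, both subunits had H3K4me3 in 2 pairs, 1 subunit in 13 and neither in 9. With any protein-coding transcript start, the numbers were 9, 13 and 2. The 9 pairs were ITGB1 with ITGA2, ITGA3, ITGA5, ITGA7 or ITGAV, ITGAV with ITGB3, ITGB5 or ITGB8, and ITGA2B with ITGB3. H3K27ac at both subunits was found in 3 pairs, those of ITGB1 with ITGA2, ITGA3 and ITGA7. Pairs share subunits and are not independent, and ITGB1 is in 12 of the 24 and in 5 of the 9. Among all protein-coding genes, 38.2% had H3K4me3 near the outer start and 44.6% near any protein-coding transcript start. H3K27ac lay near any such start in 29.1%. No share was computed for pairs of other genes, so whether the pair counts are particular to integrins was not tested. Some or all of the peaks at ITGB1, ITGB8, ITGA2, ITGA3 and ITGB3 and at the outer start of ITGA7 also lay near starts of neighbouring genes. Near its canonical start, ITGA7 had H3K4me3 at 6.02 and H3K27ac at 1.39, with no start of another gene within 1 kb of these peaks. The pair counts also rest on the start used for ITGA2B, ITGB1 and ITGB5.

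Among laminins, 6 of 12 genes had H3K4me3 near the start (50%, 21.1 to 78.9) and 3 had H3K27ac (25%, 5.49 to 57.2), and both intervals include the shares of all genes, 38.2% and 23.6%. LAMC1, the gamma chain of most laminins, lies on chromosome 1 at 182992555 to 183114727. Its H3K4me3 peak of 951 bp began 25 bp into the gene with a value of 10.5, above 98.8% of the peaks in the list. A second H3K4me3 peak of 5.41 lay upstream and overlapped the H3K27ac peak of 3.55. LAMB1 had H3K4me3 at 4.46 and H3K27ac at 2.76, both inside the gene. LAMA5 had H3K4me3 on both sides of its start, at 4.76 with its edge 715 bp upstream and at 2.29 with its edge 834 bp downstream, and H3K27ac began 1.75 kb downstream. These chains form the laminin of mature epithelial basement membranes. LAMB2, which can take the place of LAMB1 in that trimer, had no peak near its start, and its window held 1 H3K4me3 peak near the start of another gene.

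LAMA3 and LAMB3 encode chains of the laminin to which hemidesmosomes attach. Both genes had H3K4me3 near the outer start, with 3.76 over exon 1 of LAMB3 and 2.97 at LAMA3. LAMA3 has 8 other annotated transcript starts over 1 kb from the outer one, and none of these had H3K4me3 nearby. H3K27ac near the start was found at LAMB3, with 4.32, and not at LAMA3, whose nearest H3K27ac peak lay 2.67 kb downstream. LAMA3 lies on chromosome 18, where 10.9% of genes had H3K4me3 near the start. LAMA1, also on chromosome 18, and LAMA2 and LAMA4, the chains of embryonic, muscle and vascular basement membranes, had no peak of either mark in the whole window. LAMB4 and LAMC3 had no mark near the start and 1 H3K27ac peak each in the window.

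**Figure D3:**
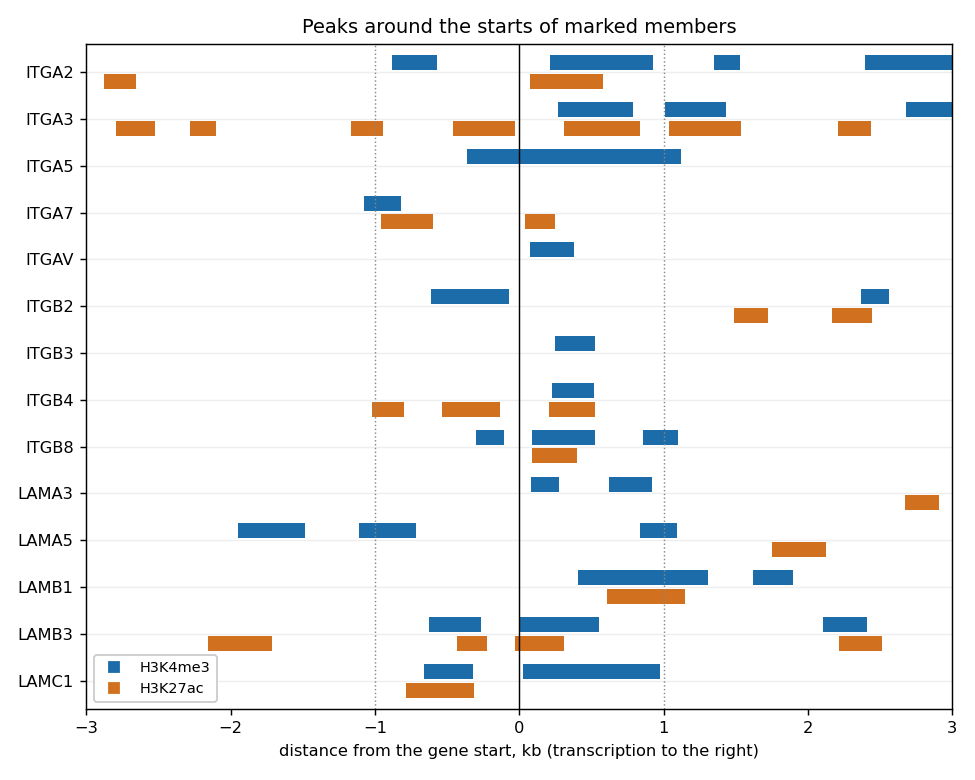
Position of each peak relative to the gene start (horizontal axis, kb, transcription to the right) for members with H3K4me3 near the start, with H3K4me3 above and H3K27ac below each line. Dotted lines mark 1 kb. Of the H3K4me3 peaks, those of ITGA5 and LAMB3 cover the start itself.

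Near the 15 marked starts lay 22 H3K4me3 peaks, of which 14 were centred downstream of the start and 2 covered the start base. Of the 14 H3K27ac peaks near 8 starts, 7 were centred downstream. The median of the highest H3K4me3 value was 3.76, the same as over all marked starts. The median of the highest H3K27ac value was 4.66, compared with 3.05 over all marked starts.

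The peaks over the members were then sorted by their distance from starts. The windows held 73 distinct H3K4me3 peaks covering 29.2 kb and 112 H3K27ac peaks covering 37.5 kb. Of the H3K4me3 peaks, 22 were near the outer start of a member, 9 near another transcript start of a member, 11 near the start of another protein-coding gene and 31 (42.5%) near none of these. Of the H3K27ac peaks, the numbers were 14, 11, 4 and 83 (74.1%), and 57 of the 83 lay inside the gene. When the starts of all annotated genes and of protein-coding transcripts were counted, 77 of 112 H3K27ac peaks (68.8%, 59.3 to 77.2) were over 1 kb from a start, close to the 65.3% of the whole list. H3K27ac was present over 14 members that had neither mark near the outer start. The share of all genes in this state is not given, and the longer windows of the members have more room for a peak. The count includes peaks near starts of other protein-coding genes, 2 at ITGAL and the only peak of LAMC3. Peaks at ITGA1, ITGA10, ITGAE, ITGB1 and ITGB5 lay within 1 kb of starts of genes that are not protein-coding. Among these was the only H3K27ac peak of ITGA1, near PELO-AS1. For ITGA10, ITGAL and LAMB2, all H3K4me3 in the window lay at starts of other genes.

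Overlap of the marks was compared with the whole lists. Of 73 H3K4me3 peaks, 29 overlapped H3K27ac (39.7%, 28.5 to 51.9), and 31.1% did so in the whole list. Of 112 H3K27ac peaks, 27 overlapped H3K4me3 (24.1%, 16.5 to 33.1), compared with 24% in the list. Both intervals include the share of the list.

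H3K27ac peaks were spread unevenly over the members. The 5 with the most were ITGA3 with 17, ITGB5 with 10, LAMA5 with 9, ITGB2 with 8 and ITGA2 with 7. Together these made 51 of 112 (45.5%). No such share is given for all genes, so whether this is particular to the members was not tested. The median window held 2 H3K27ac peaks for the members and 0 for all genes. ITGA3 had 31.2 H3K27ac peaks per 100 kb, more than 99.6% of all protein-coding genes. After H3K27ac peaks separated by gaps of up to 10 kb had been joined, 4606 regions of at least 2 peaks resulted, with a median of 3 peaks. The region at ITGA3 spanned 41.1 kb on chromosome 17, from 48104492 to 48145618, held 24 H3K27ac peaks and 9 H3K4me3 peaks, and ranked 13 by the number of H3K27ac peaks. It reached from far upstream of ITGA3 into exon 4, and the H3K27ac peaks at −1.05 kb and in exon 2 shared the value of 6.88. The latter is the ITGA3 distal peak printed above, and it overlapped an H3K4me3 peak of 2.21.

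Other members touched smaller regions. The LAMA5 region held 7 peaks in 14.5 kb across introns 1 to 6, the ITGB2 region 7 peaks in 16.9 kb, the LAMB3 region 6 peaks in 6.73 kb and the main ITGB5 region 5 peaks in 8.9 kb. In LAMB3, the peaks ran from 3.13 kb upstream to intron 3, where the printed distal peak had a value of 4.27. In ITGB5, the widest H3K27ac peak, 1115 bp, lay in intron 1. A region of 8 peaks touching the window of ITGB7 lay over RARG, a neighbouring gene. Its 2 peaks inside the window were the only H3K27ac peaks of ITGB7 and are part of the counts above.

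**Figure D4:**
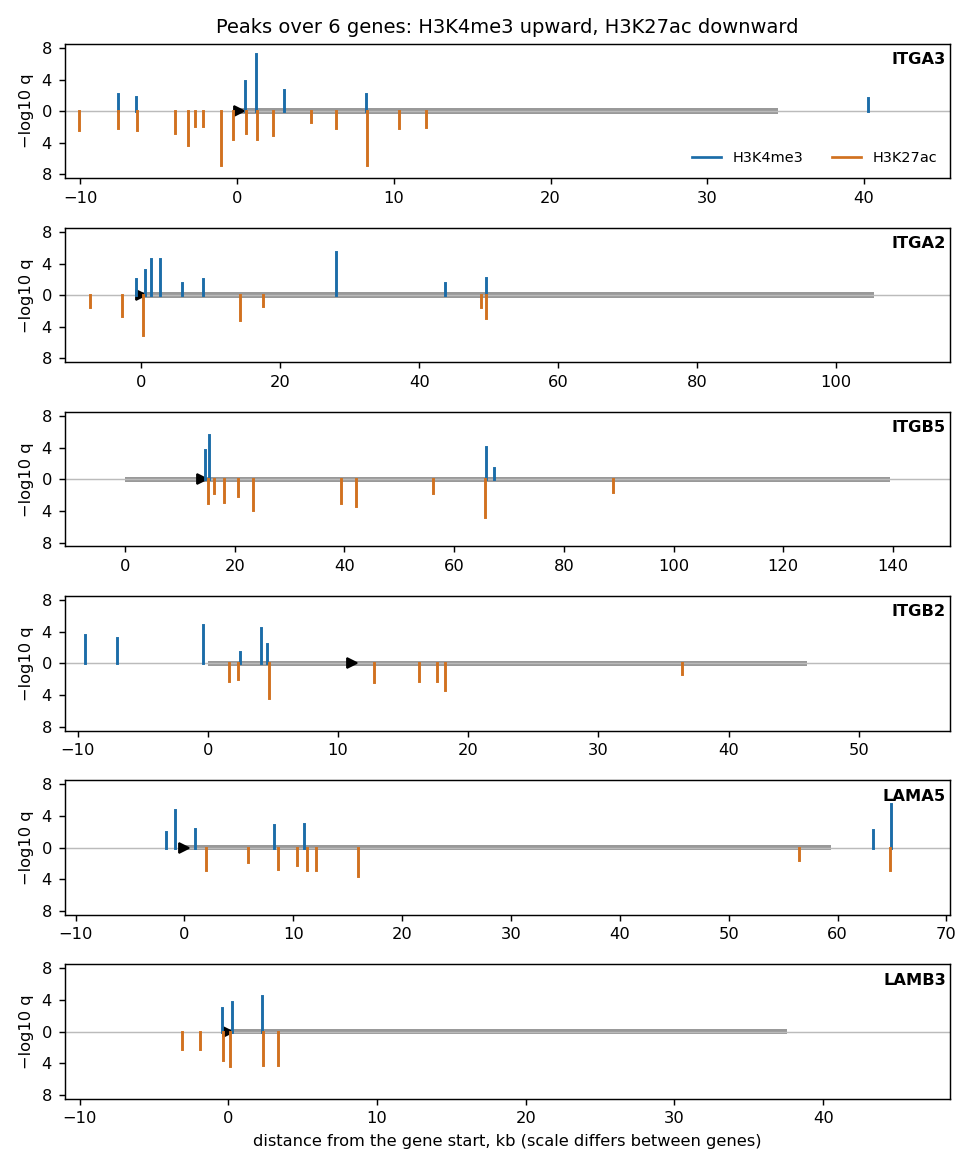
Peaks over ITGA3, ITGA2, ITGB5, ITGB2, LAMA5 and LAMB3, with distance from the outer gene start (kb) on the horizontal axis and −log10 q on the vertical axis, H3K4me3 drawn upward and H3K27ac downward. Grey bars are the genes and black arrowheads the canonical start, and the horizontal scale differs between genes. The 17 H3K27ac peaks of ITGA3 gather around the start, and the marks of ITGB5 begin at the canonical start 14.1 kb inside the gene.

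Base composition at the start differed between members with and without H3K4me3, as it did over all genes. Within 500 bases of the start, the median CpG observed to expected ratio was 0.714 for the 15 members with H3K4me3 and 0.395 for the 23 without, against 0.783 and 0.484 over all genes. The median GC content was 66.3% and 55.3%. Of 19 members with a ratio of at least 0.6, 12 had H3K4me3, and 56.4% of all such genes did. The 7 without were ITGA1, ITGA4, ITGA6, ITGA8, ITGA9, LAMA1 and LAMC3. Of 19 members with a lower ratio, 3 had H3K4me3, ITGA5 and LAMB3 among them, and 11.4% of all such genes did. The leukocyte integrins ITGAD, ITGAE, ITGAL, ITGAM, ITGAX and ITGB7 were among the members with a lower ratio and no H3K4me3. LAMB3 had the lowest ratio of the marked members, 0.223.

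**Figure D5:**
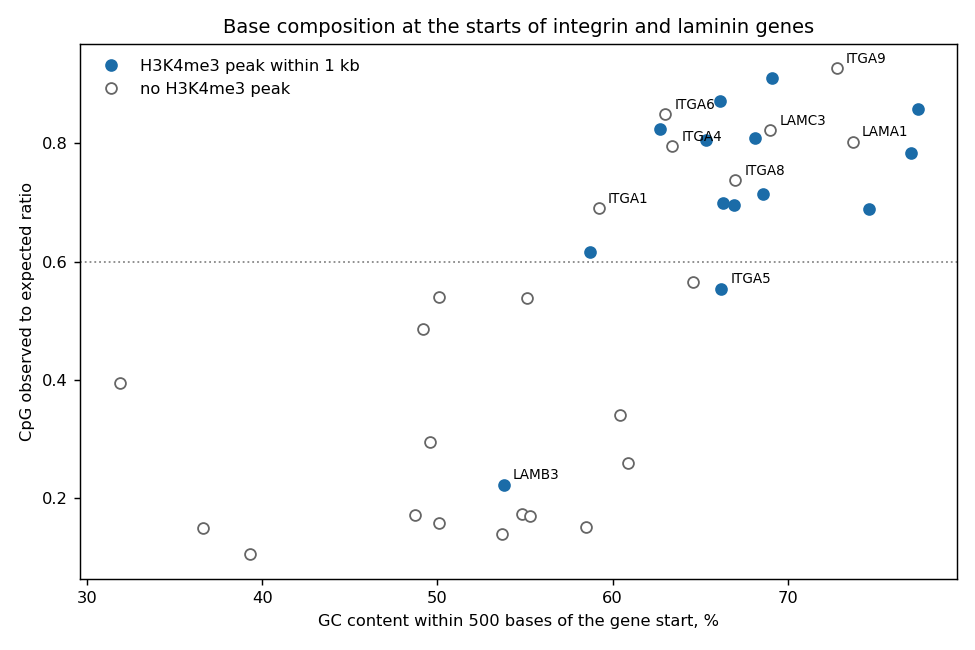
GC content (horizontal axis, %) and CpG observed to expected ratio (vertical axis) within 500 bases of the start for integrin and laminin genes, with filled points for an H3K4me3 peak within 1 kb. The dotted line marks a ratio of 0.6. Above it 12 of 19 points are filled, and below it the filled points are ITGA5 and LAMB3.

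The GC box shown in the printed sequences was searched on both strands in the 250 bases before every start. It was found in 15 of 15 members with H3K4me3 and in 8 of 23 without (34.8%). Over all genes the shares were 67.4% with and 37.2% without H3K4me3, and 48.7% in total. Because the motif is made of G and C, its share moves with the GC content given above, and the part of GC content in this result was not tested. The AP-1 motif TGANTCA was found before 2 members, with 5.44% of all promoters, the TEAD motif GGAATG before 7, with 11% of all, and the E-box CACGTG before 1, with 7.17% of all. A match describes letters and is no evidence of binding.

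Motifs were searched in the 77 H3K27ac peaks over 1 kb from every such start. AP-1 matched in 5 of 77 (6.49%), compared with 5.75% of 15740 such peaks in the list. TEAD matched in 10 (13%), compared with 14%. The GC box matched in 7 (9.09%), compared with 14%. These shares were close to those of the list for AP-1 and TEAD.

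Genes that work with these receptors were counted in the same way. Of 46 genes of the adhesion pathway and basement membrane, 20 had H3K4me3, 16 had H3K27ac and 13 had both, beside background shares of 38.2%, 23.6% and 18.6%. Focal adhesion genes, which connect integrins to actin, accounted for most, with 12 of 22 having H3K4me3 and 13 of 22 having H3K27ac. TLN1, a talin that activates integrins, had H3K4me3 at 5.40 and no H3K27ac, ACTN1, an actin crosslinker, had 6.98 and 2.16, and TNS2, a tensin, had 7.82 and 6.04. H3K27ac without H3K4me3 near the outer start was found at the kindlin genes FERMT1 and FERMT2 and at BCAR1. The value was 1.39 at both kindlin genes, near the smallest of the list, 1.303, and 2.25 at BCAR1. FERMT2 and BCAR1 had H3K4me3 near another transcript start. Of 4 hemidesmosome genes, PLEC, DST and CD151 had H3K4me3 and COL17A1 did not. Of 17 basement membrane and ligand genes, 5 had H3K4me3, namely COL4A3, COL4A4, NID1, HSPG2 and AGRN, while FN1, COL4A1 and COL4A2 had neither mark. COL4A3 and COL4A4 are divergent neighbours and shared 1 peak of each mark. DAG1, BCAM and RPSA, which encode laminin receptors other than integrins, had no peak of either mark over the gene.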

How the data were processed

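ChIP-seq peak lists for H3K4me3 and H3K27ac in H2087 were analysed, 1 library each. According to the methods and the submitters' processing notes, the authors aligned reads to hg19 with Bowtie 1.1.1 and called peaks with MACS2 2.1.0. Input chromatin was set aside for normalization, per the methods. The threshold, duplicate handling and whether the input was the control in peak calling are not given in the sources used here. The deposited lists give positions and a last column without a header, which was read from its values as the −log10 q of each summit (smallest value 1.303 for H3K27ac and 1.306 for H3K4me3). It depends on depth and copy number, and the size of the values cannot be compared between marks. The lists held 25275 and 20282 entries. Intervals listed once per summit were taken as 1 peak with the highest value, which gave 24096 H3K27ac and 18585 H3K4me3 peaks.

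Gene positions came from GENCODE release 44 mapped to GRCh37 (hg19), 1-based, and sequences from the GRCh37 genome. A peak was near a start when any base lay within 1 kb of the outer 5′ end of the gene, and over a gene when at least 1 bp lay in the gene or its 10 kb flanks. Sequences follow a rule on the highest values within each family. The values of 1 gene and 1 sequence are not reported here, and the gene is part of the counts. Members, roles, lists and pairs were chosen with earlier results of these data known, and the canonical start, base composition and motifs were added after the lists had been seen. No p-value was computed. Python 3.11.15, scipy 1.17.1 and pysam 0.24.0 were used, and the counting code was tested on simulated intervals. Alternatives were other distances, starts, flanks, value limits and widths, and merged or repeated entries.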

Additional observations from a re-analysis of the deposited data

How the results depend on the processing

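The 8 reported counts were recomputed under other settings, which gave 48 alternative values, 37 of them within 1.5 times the reported count. With a −log10 q of at least 5, members with a peak near the start fell to 3 for H3K4me3, 3 for H3K27ac and 1 for both, members with a peak over the gene and flanks to 12 for H3K4me3 and 3 for H3K27ac, and peaks in the windows to 14 and 4. With peaks at or above the median value of each list, the windows held 37 H3K4me3 and 50 H3K27ac peaks. Within 3 kb of the start, 13 members had H3K27ac, the added ones being ITGB1, ITGB2, LAMA3, LAMA5 and LAMB2. Without flanks, 47 H3K4me3 peaks lay over the genes. These settings use fewer peaks, a wider distance or shorter windows by construction. The shares of all genes are not given at these settings, so the members cannot be compared with the background there. With canonical starts, an alternative added after the data were seen, 16 members had H3K4me3, 10 had H3K27ac and 10 had both. Depth was unknown, so absence of a peak sets no limit on the level of a mark. No paired analysis was possible because there was only 1 sample per antibody.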
